A study of Mus musculus with 4 samples.

Results

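Chemokines are small secreted or membrane-anchored proteins that guide migrating cells by binding receptors of the G protein-coupled family. In the embryonic forebrain Cxcl12 is best known as a product of the meninges, the connective tissue sheets over the cortex, and it holds Cajal-Retzius cells and migrating interneurons in their layers. Those neural cells carry its receptors, Cxcr4, which signals through G proteins, and Ackr3, an atypical receptor that binds and removes Cxcl12 and signals mainly through arrestins. The genes described here are the ligands Cxcl12, Cxcl14, Cx3cl1 and Ccl28 and the receptors Cxcr4 and Ackr3, chosen by name. All 6 were found by gene name in both deposited tables, among 21767 genes in either table, and none was absent. All 6 passed the filter on low counts, which left 16725 genes for testing.

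The study measured RNA by sequencing in cortex dissected from C57BL/6 embryos of the mouse on embryonic day 15, with 2 µg of total RNA per library, and asked how Prdm16, a zinc-finger transcriptional regulator, acts between neurons and vessels. One group was labelled Prdm16cKO, a conditional knockout, and the other Prdm16fl/fl, controls with floxed Prdm16 alleles; neither the Cre driver nor the deleted exon is given in the sources used here. The labels list 2 samples per group, with the word Blood, unexplained, in the title of 1 of each. The tables hold 2 libraries named KO and 1 named WT, and their names do not show which sample each was. They are called cKO 1, cKO 2 and floxed here, and the numbers are names only. Nothing says that they came from separate animals, so a p-value measures only the spread between these libraries, and every floxed level is that of 1 library.

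The library totals were 19518174 reads for cKO 1, 18581791 for cKO 2 and 17841685 for floxed, and levels are given as CPM, the reads of a gene per 1000000 reads of the library. Markers of dorsal cortex were abundant, with Neurod6, a factor of cortical projection neurons, at 978 CPM in cKO 1, 872 in cKO 2 and 902 in floxed. Prdm16 itself was at 34.6 CPM in cKO 1 and 24.1 CPM in cKO 2, against 30.2 CPM in floxed. The level in cKO 1 was thus not below that in floxed. These levels cover the whole gene in bulk tissue and the deleted exon is not given, so they cannot judge the labels. Directions below refer to libraries by label. The library cKO 2 stood apart in markers of non-neural tissue. All 20 meningeal and fibroblast markers were lower in it than in floxed beyond counting error, where 24.5% of all tested genes were, and the sum of the 20 was 164 CPM in cKO 2, against 1620 CPM in cKO 1 and 1071 CPM in floxed. In bulk tissue, fewer cells of a type and less RNA per cell cannot be told apart.

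Cxcl12 had the widest spread between libraries of the 6 genes, with a low value in cKO 2. The gene (ENSMUSG00000061353, GRCm38 chromosome 6, 117168535 to 117181367, plus strand) gave 2568 reads in cKO 1, 488 in cKO 2 and 1938 in floxed. These are 132 CPM in cKO 1, 26.3 CPM in cKO 2 and 109 CPM in floxed. The floxed value lay between those of the libraries labelled cKO, so the groups overlapped.

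Against floxed, Cxcl12 was 1.21-fold higher in cKO 1, with an exact 95% interval of 1.14 to 1.29 from counting error. In cKO 2 it stood at 0.242 of the floxed level, with an interval of 0.218 to 0.267, or 4.14-fold lower. The libraries labelled cKO differed from each other by more than either differed from floxed, and Cxcl12 in cKO 2 was 0.1996 of its level in cKO 1 (0.181 to 0.220). Of all 16725 tested genes 362, or 2.16%, were as low or lower in cKO 2 relative to floxed, and of the 11553 with a mean of at least 5 CPM 61 were, or 0.528%. The group mean was 78.9 ± 74.5 CPM in cKO (SD, n = 2), against 109 CPM in floxed. The fitted log2 fold of cKO over floxed was -0.46 (SE 0.69 by the edgeR quasi-likelihood test, adjusted p = 1). Without cKO 2 it turned to 0.28 and without cKO 1 it was -2.05, so the direction of the group value rested on cKO 2.

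**Figure D1:**
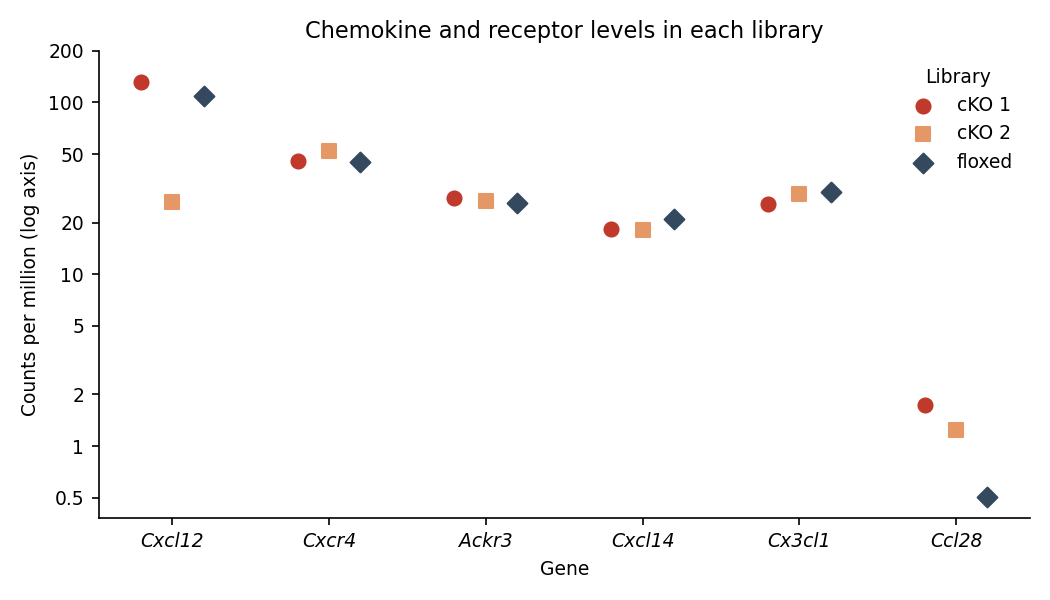
Level of each gene in CPM (vertical log axis) in the libraries cKO 1, cKO 2 and floxed, with 1 point per library. Cxcl12 lies at 26.3 in cKO 2, against 132 in cKO 1 and 109 in floxed, whereas the points of Cxcr4, between 45.1 and 52.4, lie close together. CPM is not corrected for gene length, so points are compared within a gene.

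Cxcr4, the signalling receptor (ENSMUSG00000045382, chromosome 1, 128588199 to 128592293, minus strand), lay in a narrow range. There were 886 reads in cKO 1, 974 in cKO 2 and 804 in floxed, which are 45.4 CPM in cKO 1, 52.4 CPM in cKO 2 and 45.1 CPM in floxed. The level in cKO 1 was within counting error of floxed (ratio 1.01, interval 0.915 to 1.11), and that in cKO 2 was above it (1.16, 1.06 to 1.28). The cKO mean was 48.9 ± 4.97 CPM (SD, n = 2), against 45.1 CPM in floxed, with a fitted log2 fold of 0.12 (SE 0.16, edgeR adjusted p = 1).

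Ackr3, the scavenging receptor (ENSMUSG00000044337, chromosome 1, 90203980 to 90216751, plus strand), varied least among the 5 more abundant genes when cKO is set against floxed. There were 544 reads in cKO 1, 495 in cKO 2 and 462 in floxed, which are 27.9 CPM in cKO 1, 26.6 CPM in cKO 2 and 25.9 CPM in floxed. Neither cKO library was beyond counting error of floxed: the ratio was 1.08 (0.949 to 1.22) in cKO 1 and 1.03 (0.904 to 1.17) in cKO 2. The fitted log2 fold of cKO over floxed came to 0.07 (SE 0.19; adjusted p = 1, edgeR).

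The ligand was then set against its receptors within each library, where differences in sequencing depth cancel. Per Cxcr4 read there were 2.90 Cxcl12 reads in cKO 1, 0.501 in cKO 2 and 2.41 in floxed. Per Ackr3 read there were 4.72 in cKO 1, 0.986 in cKO 2 and 4.19 in floxed. These read ratios are not corrected for gene length. Per kilobase of exon the Cxcl12 to Cxcr4 ratio was 0.641 in cKO 1, 0.111 in cKO 2 and 0.533 in floxed. The Cxcl12 to Ackr3 ratio per kilobase was 1.93 in cKO 1, 0.404 in cKO 2 and 1.72 in floxed. The Cxcl12 to Cxcr4 ratio of cKO 2 was 0.208 of that in floxed (exact conditional 95% interval 0.181 to 0.239), and that of cKO 1 was 1.20 times floxed (1.07 to 1.35). The Cxcl12 to Ackr3 ratio of cKO 2 was 0.235 of that in floxed (0.199 to 0.277), and that of cKO 1 was 1.13 times floxed (0.978 to 1.29), which is within counting error. Over libraries, the floxed value lay between the cKO values for both ratios, and an exact two-sided permutation test over the 3 libraries gave p = 1 for each, where the smallest p this design allows is 0.333.

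The receptors kept a steadier relation to each other. There were 1.63 Cxcr4 reads per Ackr3 read in cKO 1, 1.97 in cKO 2 and 1.74 in floxed. Neither cKO library departed from floxed beyond counting error, with ratios of ratios of 0.936 (0.798 to 1.10) in cKO 1 and 1.13 (0.963 to 1.33) in cKO 2. The libraries labelled cKO did differ from each other, with cKO 2 at 1.21 times cKO 1 (1.03 to 1.41). This receptor pair was added after its values were seen.

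**Figure D2:**
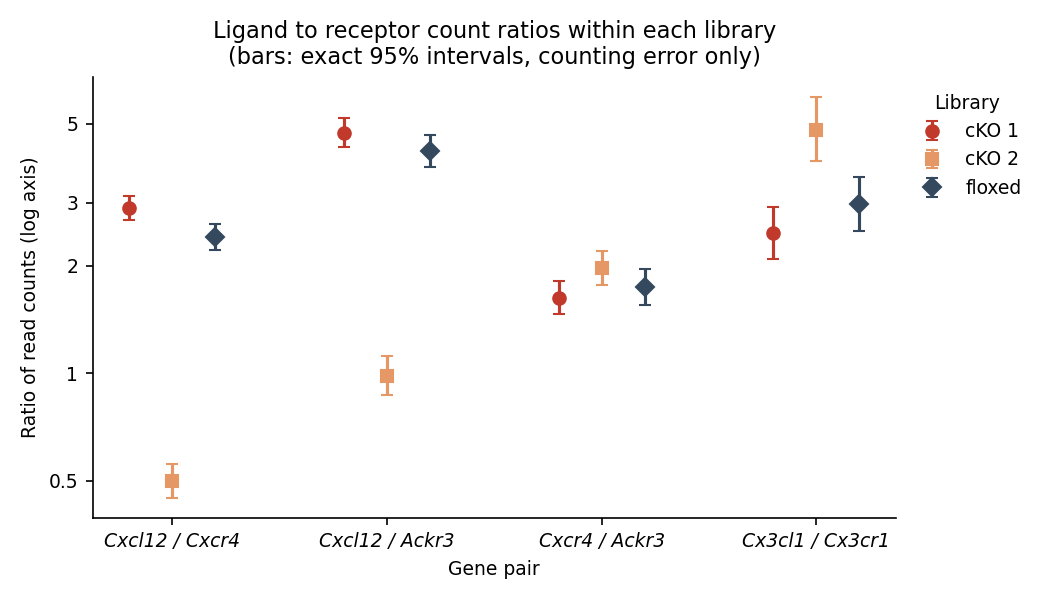
Ratio of read counts of 2 genes within 1 library (vertical log axis) for the ligand and receptor pairs, with exact 95% intervals that cover counting error only. Both Cxcl12 ratios are lowest in cKO 2, at 0.501 and 0.986, whereas Cxcr4 to Ackr3 runs only between 1.63 and 1.97. Read ratios are not corrected for gene length, so points are compared within a pair.

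Cell type markers were read beside these genes. The meningeal and fibroblast markers were all higher in cKO 1 than in floxed, 18 of 20 beyond counting error where 17.8% of all tested genes were, with a median log2 ratio of 0.66. In cKO 2 all 20 were lower, with a median of -3.13, and over all tested genes the medians were 0.01 in cKO 1 and -0.04 in cKO 2. The fibrillar collagen gene Col3a1 had 215 CPM in cKO 1, 6.83 CPM in cKO 2 and 136 CPM in floxed, and the matrix glycoprotein gene Fn1 had 152, 55.8 and 128 CPM in the same libraries. Cxcl12 moved in the same direction as these markers in each cKO library but by less: 14 of the 20 markers had a lower ratio than Cxcl12 in cKO 2, and 19 of 20 a higher one in cKO 1. Cxcl12 therefore amounted to 15.98% of the summed CPM of the list in cKO 2, against 8.12% in cKO 1 and 10.1% in floxed.

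The summed levels of other non-neural lists were also lower in cKO 2. Markers of the endothelium, which lines the vessels, summed to 541 CPM in cKO 1, 285 in cKO 2 and 457 in floxed. Of these, 17 of 18 were lower in cKO 2 than in floxed beyond counting error, where 24.5% of all tested genes were. Pericyte and smooth muscle markers summed to 352 CPM in cKO 1, 164 in cKO 2 and 290 in floxed. Of 11 tested members, 10 were lower in cKO 2 beyond counting error, against the same 24.5% of all genes. Tagln, a smooth muscle actin-binding protein gene, was the only marker of the cell type lists listed at 0, in cKO 2. Choroid plexus markers summed to 1150 CPM in cKO 1, 347 in cKO 2 and 1157 in floxed. All 10 were lower in cKO 2 beyond counting error, again against 24.5% of all genes. Their median log2 ratio was -1.82 in cKO 2 and 0.17 in cKO 1. Erythroid markers summed to 1608 CPM in cKO 1, 1298 in cKO 2 and 1760 in floxed. The erythroid sum did not stand for its members, since 7 of 11 were higher in cKO 2 than in floxed and 4 lower, with a median log2 ratio of 0.29. The part of these cell types in the Cxcl12 values was not tested.

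Markers of neural cells, some of which carry the receptors, were read in the same way. Cajal-Retzius markers summed to 384 CPM in cKO 1, 441 in cKO 2 and 369 in floxed. In cKO 2 all 10 were above floxed, with a median log2 ratio of 0.47, and 9 were beyond counting error where 16.1% of all genes were. In cKO 1, 8 of 10 were above floxed, with a median of 0.08, and 4 were beyond counting error where 17.8% of all genes were. Cxcr4 and this list were thus both highest in cKO 2, whereas Ackr3 was highest in cKO 1. A ratio to floxed in cKO 2 as high as that of Cxcr4 was seen in 16.7% of all tested genes. Cortical interneuron markers summed to 829 CPM in cKO 1, 828 in cKO 2 and 934 in floxed. Of 15 interneuron markers, 13 were below floxed in cKO 1 and 12 in cKO 2, with medians of -0.13 and -0.14. In each cKO library 7 of the 15 were below floxed beyond counting error, where 16% of all tested genes were in cKO 1 and 24.5% in cKO 2. Radial glia markers summed to 2363 CPM in cKO 1, 2323 in cKO 2 and 1733 in floxed, with 5 of 9 above floxed beyond counting error in cKO 1 and 6 of 9 in cKO 2, where 17.8% and 16.1% of all genes were. These comparisons share the floxed library, and the part of these cell types in the receptor values was not tested. Intervals narrow with more reads, so genes as abundant as the radial glia marker Vim, with 16751 reads in cKO 1, pass beyond counting error at smaller ratios than sparse genes. Intermediate progenitors, which in the mouse cortex are another source of Cxcl12, had marker sums of 803 CPM in cKO 1, 872 in cKO 2 and 893 in floxed.

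**Figure D3:**
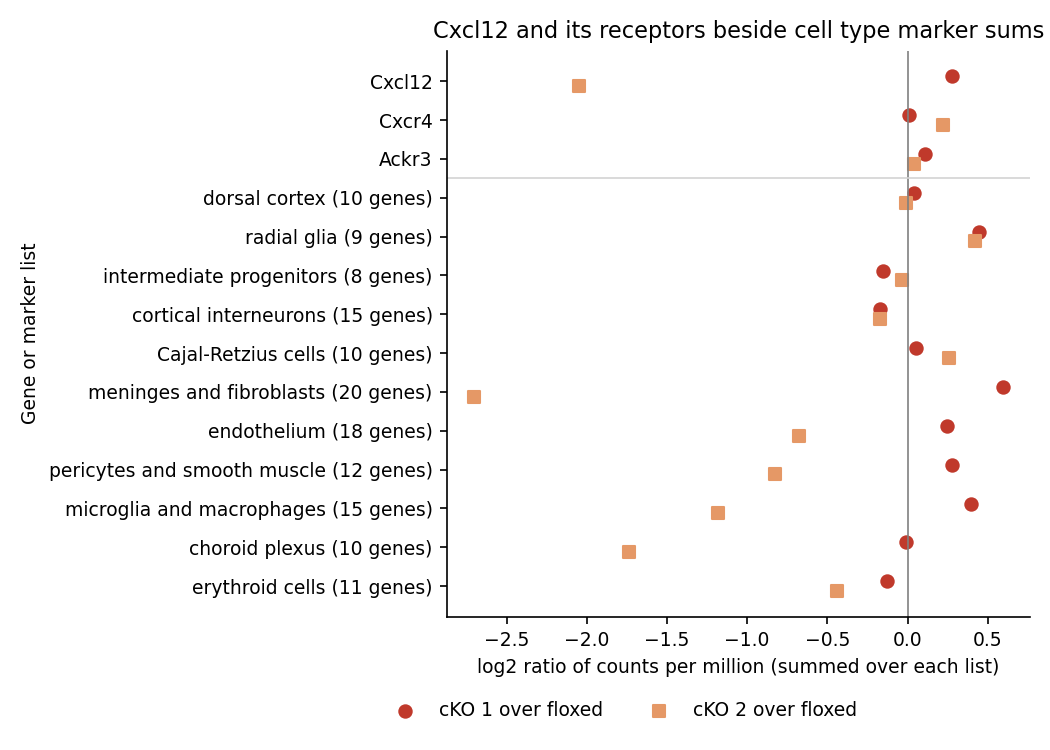
Log2 ratio of each cKO library over floxed (horizontal axis) for Cxcl12, Cxcr4 and Ackr3 and for the summed CPM of cell type marker lists, with 1 point per cKO library. Cxcl12 (-2.05 in cKO 2) lies between the meningeal sum (-2.70) and the choroid plexus sum (-1.74), and both receptors lie between 0.01 and 0.22. The radial glia sum lies above them, at 0.45 in cKO 1 and 0.42 in cKO 2.

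The genes whose folds in both cKO libraries lay nearest to those of Cxcl12 were Col4a6, Pcolce, Enpp2, Stab1 and Sostdc1, at distances of 0.07, 0.09, 0.12, 0.16 and 0.17 on the plane of the log2 folds. The measure covers 3 libraries only. Col4a6, a basement membrane collagen, had 13.01 CPM in cKO 1, 2.53 CPM in cKO 2 and 10.3 CPM in floxed. Enpp2 and Sostdc1 belong to the choroid plexus marker list used above. Of 11551 other genes compared, 7 lay within 0.2 of Cxcl12, whereas 2940 lay within that distance of Cxcr4 and 4428 of Ackr3. The nearest genes to Cxcr4 were Rps12, Lsm1, Aamp, Dhx34 and Ndufaf2, and those to Ackr3 were Zfp3, Cacna1e, Zc2hc1a, Ncbp2 and Rbm26. For Cxcl14 they were Fbrsl1, Gm4316, Tenm4, Ppp2r2d and Hif1an, with 2286 genes within 0.2, and for Cx3cl1 they were Tbc1d17, Kmt2b, Podxl2, Mcee and Usp13, with 2550 genes within 0.2.

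The other ligands were read next. Cxcl14, a CXC chemokine whose receptor is still debated (ENSMUSG00000021508, chromosome 13, 56288647 to 56296551, minus strand), gave 357 reads in cKO 1, 336 in cKO 2 and 374 in floxed. Its level was 18.3 CPM in cKO 1, 18.1 CPM in cKO 2 and 21.0 CPM in floxed. Both cKO values lay below the floxed one, and their mean was 18.2 ± 0.147 CPM (SD, n = 2). The ratios to floxed were 0.873 (0.753 to 1.01) in cKO 1 and 0.863 (0.742 to 1.002) in cKO 2, with the upper bounds just above 1. The fitted log2 fold of cKO over floxed came to -0.20 (SE 0.22; adjusted p = 1, edgeR).

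Cx3cl1, or fractalkine, is anchored on neurons by a mucin stalk and is released when the proteases Adam10 and Adam17 cut it; its receptor Cx3cr1 sits on microglia. The gene (ENSMUSG00000031778, chromosome 8, 94772009 to 94782427, plus strand) gave 501 reads in cKO 1, 543 in cKO 2 and 536 in floxed, which are 25.7 CPM in cKO 1, 29.2 CPM in cKO 2 and 30.0 CPM in floxed. It was below floxed beyond counting error in cKO 1 (0.854, 0.755 to 0.967) and within it in cKO 2 (0.973, 0.862 to 1.10), where the log2 ratio of -0.040 turned to 0.0028 with TMM factors and 0.0038 with DESeq2 size factors. The fitted log2 fold of cKO over floxed came to -0.13 (SE 0.19; adjusted p = 1, edgeR). Its receptor Cx3cr1, by contrast, had 10.4 CPM in cKO 1, 6.08 CPM in cKO 2 and 10.1 CPM in floxed, and stood at 0.603 of floxed in cKO 2 (0.472 to 0.767). There were 2.47 Cx3cl1 reads per Cx3cr1 read in cKO 1, 4.81 in cKO 2 and 2.98 in floxed, a pair added after its values were seen. The ratio in cKO 2 was 1.61 times that in floxed (1.23 to 2.12). Microglia and macrophage markers, a list that includes Cx3cr1 itself, summed to 211 CPM in cKO 1, 70.8 in cKO 2 and 160 in floxed, and their part in this ratio was not tested. Adam10 had 90.2 CPM in cKO 1, 71.6 in cKO 2 and 74.4 in floxed, and Adam17 had 27.9, 25.7 and 25.9 CPM in the same libraries.

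Ccl28, known as a chemokine of mucosal epithelia that acts on Ccr10 and Ccr3, was the rarest of the 6 per kilobase of exon (ENSMUSG00000074715, chromosome 13, 119623819 to 119654354, plus strand). There were 34 reads in cKO 1, 23 in cKO 2 and 9 in floxed, which are 1.74 CPM in cKO 1, 1.24 CPM in cKO 2 and 0.504 CPM in floxed. Both cKO values lay above the floxed one. It was 3.45-fold higher than floxed in cKO 1, with an interval of 1.62 to 8.19, and 2.45-fold higher in cKO 2, with an interval of 1.09 to 6.03; both ratios rest on the same 9 floxed reads. The mean was 1.49 ± 0.357 CPM in cKO (SD, n = 2), against 0.504 CPM in floxed. The fitted log2 fold of 1.55 (SE 0.75) did not pass the test (edgeR unadjusted p = 0.0740, adjusted p = 1). As high a ratio was seen in 93 of 16725 tested genes in cKO 1 and in 206 in cKO 2. Ccl28 passed the filter on low counts only through the cKO libraries, since its 9 floxed reads lay below the minimum count of 10. Its place among the tested genes follows partly from that filter and is no support for a difference. Robo3, an axon guidance receptor, was the gene nearest to it, at a distance of 0.20, with 13.5 CPM in cKO 1, 10.3 in cKO 2 and 4.43 in floxed; Gabra2, 1110032F04Rik, Veph1 and Scrg1 followed, at distances of 0.34 to 0.54. Of the receptors of Ccl28, Ccr10 was listed in 1 table only, with 5 counts in cKO 1 and 3 in floxed, and Ccr3 was in neither table.

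**Figure D4:**
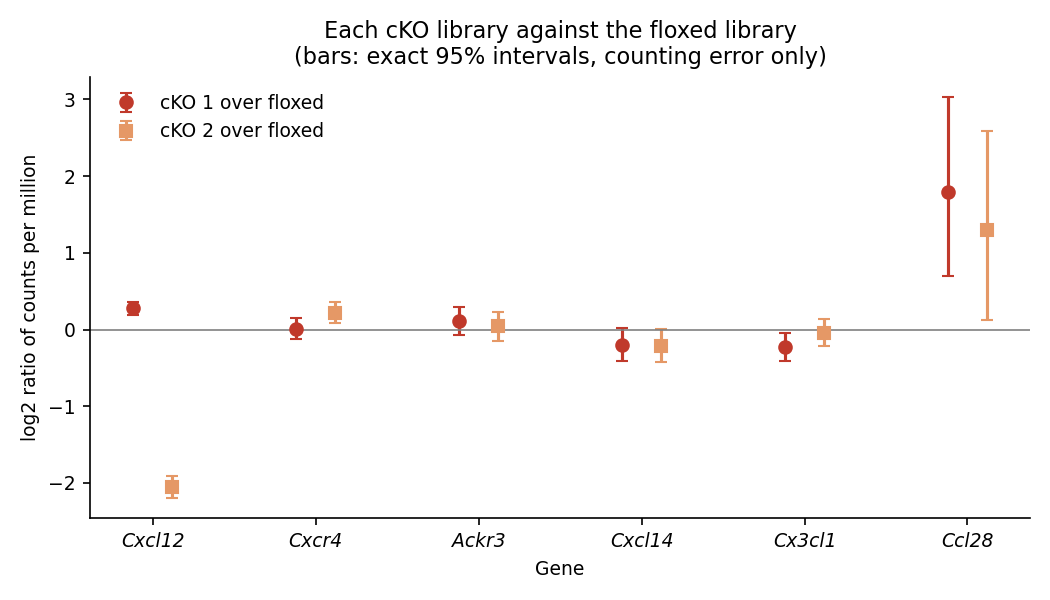
Log2 ratio of each cKO library over floxed (vertical axis) for the 6 genes, with exact 95% intervals that cover counting error only. The interval of Ccl28 is widest, from 0.70 to 3.03 in cKO 1, since floxed had 9 reads, and Cxcl12 is the only gene whose intervals lie on opposite sides of 0, at 0.28 in cKO 1 and -2.05 in cKO 2.

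None of the 6 genes passed the test of cKO against floxed. By edgeR 0 of 6 passed at an adjusted p under 0.05, 0 of 6 had an unadjusted p under 0.05, and DESeq2 called 0 of 6. Over all 16725 genes edgeR called 1 as higher, or 0.00598%, and none as lower, and 1.53% had an unadjusted p under 0.05. In cKO 1, Cxcl12 and Ccl28 were above floxed beyond counting error, 2 of 6 where 17.8% of all genes were, and Cx3cl1 was below, 1 of 6 where 16% were. In cKO 2, Cxcr4 and Ccl28 were above, 2 of 6 where 16.1% of all genes were, and Cxcl12 was below, 1 of 6 where 24.5% were. Ccl28 entered these tallies of tested genes, and those below, only through its cKO counts, since its 9 floxed reads lay below the filter.

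Over 2-fold, Ccl28 was higher in cKO 1 (2.58% of all genes) and in cKO 2 (1.97%), and Cxcl12 was lower in cKO 2 (7.8%), while 0 of 6 were lower in cKO 1 (2.17%). Between the cKO libraries, Cxcl12 was over 2-fold lower in cKO 2 than in cKO 1 (8.74% of all genes) and 0 of 6 were over 2-fold higher (1.8%). Beyond counting error, Cxcr4 and Cx3cl1 were higher in cKO 2 than in cKO 1 (17% of all genes) and Cxcl12 was lower (27.3%). The floxed level lay below both cKO libraries for Cxcr4, Ackr3 and Ccl28, 3 of 6 where 27.7% of all genes did. It lay above both for Cxcl14 and, except with TMM factors or DESeq2 size factors, Cx3cl1, 2 of 6 where 31.8% did, and between them for Cxcl12, 1 of 6 where 40.5% did. These orders ignore counting error: Cxcr4 in cKO 1, Cx3cl1 in cKO 2, and Ackr3 and Cxcl14 in both were within it of floxed. Both Ccl28 ratios rest on the same 9 floxed reads. In the authors' deposited tables, Ccl28 was marked as significantly higher in both (adjusted p = 0.00174 in cKO 1 and 0.0362 in cKO 2), where 1.45% and 1.11% of all listed genes were. In the authors' deposited table for cKO 2, Cxcl12 was marked as significantly lower (log2 fold -2.05, adjusted p = 2.83e-212), where 5.62% of listed genes were. Those p-values compare 1 library with 1 library.

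**Figure D5:**
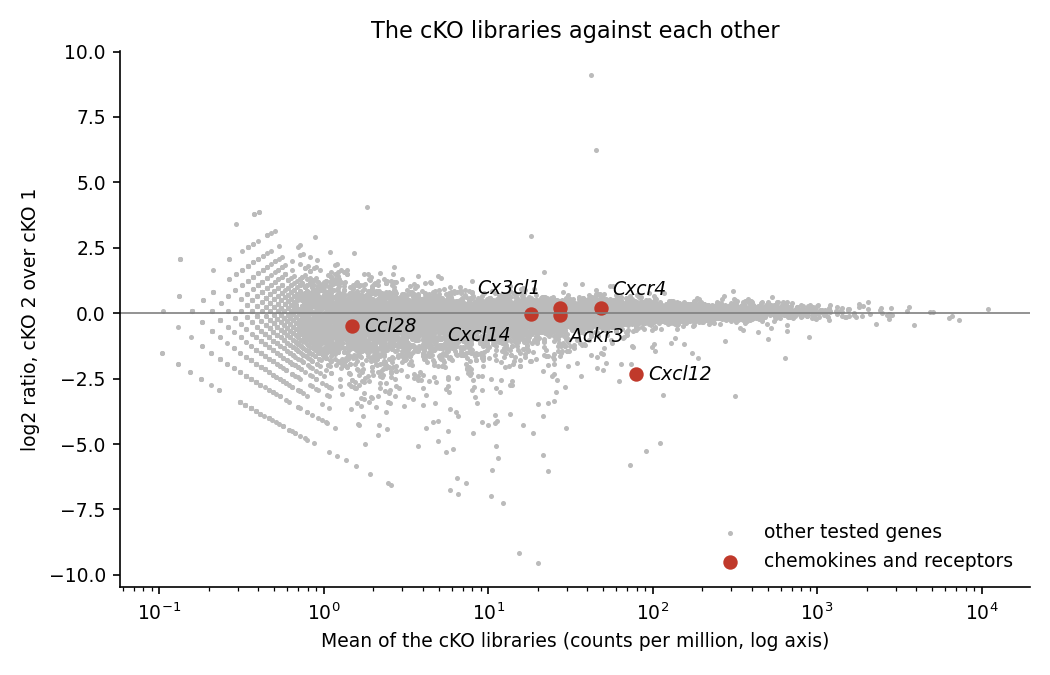
Log2 ratio of cKO 2 over cKO 1 (vertical axis) against the mean CPM of these libraries (horizontal log axis) for 16674 tested genes, with the 6 genes marked; the other 51 had 0 counts in a cKO library. Cxcl12 lies at -2.32, far below the other 5, which lie between -0.49 and 0.21.

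Levels can be ordered between genes only per length, and they are given here as CPM per kilobase of exons annotated in GENCODE M21. In floxed the order was Cxcr4 at 24.9, Cxcl12 at 13.3, Cxcl14 at 11.5, Ackr3 at 7.73, Cx3cl1 at 7.64 and Ccl28 at 0.104. In cKO 1 the order was the same, with Cxcr4 at 25.1, Cxcl12 at 16.1, Cxcl14 at 10.01, Ackr3 at 8.32, Cx3cl1 at 6.53 and Ccl28 at 0.360. In cKO 2 Cxcl12 took the fifth place, at 3.21, behind Cxcr4 at 29.0, Cxcl14 at 9.90, Ackr3 at 7.96 and Cx3cl1 at 7.44, and ahead of Ccl28 at 0.256. Ackr3 and Cx3cl1 did not differ beyond counting error in cKO 2 (ratio 1.07, 0.945 to 1.21) or in floxed (1.01, 0.891 to 1.15), and they did in cKO 1 (1.27, 1.13 to 1.44). Over the cKO libraries Cxcl12, at 9.65 ± 9.11 per kilobase (SD, n = 2), could not be placed apart from Cxcl14, at 9.95 ± 0.0807. The exon total of Cxcl12 is long, since several alternative transcripts are annotated, and this lowers its value per kilobase. It is 8176 bases, against 1808 for Cxcr4, so the place of Cxcl12 in these orders depends on which exons are counted.

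The wider chemokine system was sparse. Of 38 ligand genes looked for, 18 were listed in either table and 12 were tested; of 24 receptor genes 12 were listed and 8 tested. No gene of either list passed the edgeR test, and 0 had an unadjusted p under 0.05. In cKO 1, 2 of 12 ligands were above floxed beyond counting error and 2 below, with a median log2 ratio of -0.02; in cKO 2 these were 2 and 3, with a median of -0.30, which is the same with Ccl24 at its bound. Among all tested genes these shares were 17.8% above and 16% below in cKO 1, and 16.1% and 24.5% in cKO 2, near those of the ligands. Of 8 receptors, 1 was above and 0 below in cKO 1, and 2 were above and 2 below in cKO 2, with medians of 0.03 and -0.48.

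Several chemokine genes linked to macrophages were low in cKO 2. Pf4, a chemokine of platelets that border macrophages also make, had 11.9 CPM in cKO 1, 0.323 CPM in cKO 2 and 9.75 CPM in floxed. The receptor gene Ccr1, found on myeloid cells, gave 44 reads in cKO 1, 2 in cKO 2 and 20 in floxed. Ccl24, a ligand of Ccr3, gave 15 reads in cKO 1, 0 in cKO 2 and 17 in floxed, so it was at least 5.90-fold lower in cKO 2 than in floxed, taking 3 counts in that library as the limit. Dpp4, a membrane protease that inactivates Cxcl12 by clipping its start, had 3.74 CPM in cKO 1, 0.969 CPM in cKO 2 and 2.75 CPM in floxed.

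Other chemokine genes of the list were well above 5 CPM. Ccl27a, a skin chemokine that acts on Ccr10, had 69.8 CPM in cKO 1, 87.0 CPM in cKO 2 and 80.1 CPM in floxed, and its value is uncertain because the mouse genome holds near-identical copies. Ackr1, the Duffy receptor, which binds many chemokines without signalling through G proteins, had 36.1 CPM in cKO 1, 44.2 CPM in cKO 2 and 38.9 CPM in floxed. Ackr1 shares 25.7% of its exon bases with Cadm3, a neuronal adhesion gene on the same strand, so its reads cannot be fully told apart from those of Cadm3. None of the 6 main genes shares exon bases with another annotated gene.

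Signalling and processing genes around the receptors came next. Of 23 tested members, 8 were above floxed beyond counting error and 3 below in cKO 1, with a median log2 ratio of 0.11, and 5 and 6 in cKO 2, with a median of -0.03. Of all tested genes 17.8% were above and 16% below in cKO 1, and 16.1% above and 24.5% below in cKO 2. The shares of the list were close to these in cKO 2, whereas in cKO 1 its share above floxed, 8 of 23, was larger. No member passed the edgeR test, and 0 had an unadjusted p under 0.05. Gnai2, an inhibitory G protein subunit used by Cxcr4, had 484 CPM in cKO 1, 462 in cKO 2 and 426 in floxed. Arrb1, an arrestin that binds activated receptors, had 135 CPM in cKO 1, 136 in cKO 2 and 159 in floxed, and Arrb2 had 77.0, 85.8 and 77.0 CPM in the same libraries. The kinase Grk2, which phosphorylates activated receptors, had 171 CPM in cKO 1, 196 in cKO 2 and 185 in floxed. Mif, a cytokine that also binds Cxcr4, had 278 CPM in cKO 1, 365 in cKO 2 and 286 in floxed.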

How the data were processed

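The authors deposited raw counts per gene in 2 tables, each with 1 cKO library beside the same floxed library, per the file headers. Named tools are HTSeq 0.6.0, TopHat2 2.0.12 and Bowtie2 2.2.3, with mm9, per the submitters' processing notes. The kit named in the labels' protocols does not mark strand. The deposited normalized values are CPM with a count of 0 replaced, and from them the library totals were recovered. The authors also deposited the ratio (fold) of these values, its log2 and p-values comparing 1 library with 1 library; that test is not stated in these sources. Positions in the tables do not follow mm9. Among 21767 genes, 21707 have an ID in GENCODE M21 (GRCm38) and 19572 of these the identical position, so coordinates are called GRCm38. The floxed counts were identical in both tables and were used once.

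Counts of the 19968 genes in both tables were tested with edgeR 4.0.16 (R 4.3.3) on library totals: default filter with a minimum count of 10, quasi-likelihood test, Benjamini-Hochberg adjustment over 16725 genes. There was 1 residual degree of freedom: the spread of each gene came from the cKO libraries, and floxed was taken to vary as they do. The fit moderated this spread towards a trend over all genes, with 6.73 prior degrees of freedom. SE is the fold divided by the square root of F. Ratios of counts have exact 95% intervals (Clopper-Pearson, scipy 1.17.1) of counting error only, and the reads carry no molecular identifiers. Abundant genes have narrower intervals, so the shares beyond counting error depend on read depth. A count of 0 allows up to 3 counts, which is 0.154 CPM in cKO 1, 0.161 in cKO 2 and 0.168 in floxed. Members, marker lists and tests were chosen with earlier results of these data known. For each member the 5 tested genes of at least 5 CPM nearest in log2 folds were named; of the pathway lists, genes of at least 1 CPM in any library were eligible, and of each cell type list the 3 most abundant. Tagln, at 0 in a library, and Ccl24, Ccr10 and Ccr3, named as a chemokine at 0 in a library and as the receptors of Ccl28, were named after their values were seen. Alternatives were TMM scaling, DESeq2 1.42.0, no filter, genes in either table, each cKO library left out, and marker lists limited to genes of at least 1 CPM.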

Additional observations from a re-analysis of the deposited data

How the results depend on the processing

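No paired analysis was possible because the columns carry no sample number shared between groups and only 1 floxed library is at hand. The edgeR call of 1 gene, which is no chemokine gene, became 0 with TMM factors and 0 with no filter on low counts, stayed at 1 with genes listed in either table, and became 5 with DESeq2, with none of the 6 chemokine genes among them. The fitted log2 fold of Cxcl12 ran from -2.05 without cKO 1 to 0.28 without cKO 2, against -0.46 with both; these values carry no test. The fitted folds of the other 5 genes kept their direction under the alternatives run, and none of the 6 was called under TMM, DESeq2, no filter or either table. Ccl28 ranged from 1.28 to 1.77 when a cKO library was left out. Folds per library stayed within their counting intervals with TMM factors, DESeq2 size factors and the authors' deposited folds, but Cx3cl1 in cKO 2 turned from -0.040 to 0.0028 with TMM factors and 0.0038 with DESeq2 size factors. Scaling by exon length cancels in the ratios of ratios. Limiting lists to genes of at least 1 CPM moved the chemokine receptor median in cKO 2 to -0.10 and the erythroid median in cKO 2 to 0.078, from -0.48 and 0.29 over all tested members, since low genes dropped out. Depth limits Ccl28 most, with 9 reads in floxed.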
